A study of Drosophila melanogaster with 19 samples.

Results

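The 200 strongest X-linked MSL2 sites of wild-type male flies are the subject of this description. They are the 200 highest-ranked of 1615 X peaks in a chromatin immunoprecipitation sequencing (ChIP-seq) peak list of 3799 peaks. A second list of 3944 peaks, 1595 of them on the X, came from males of the line M1[wt] and was used to look the sites up in other flies. Both lists come from adult Drosophila melanogaster aged 3 days, of the strain Oregon-R. The genotype is given as M1[wt] for the flies of the second list and as wt for those whose 200 sites are described. The labels give nothing further on the M1[wt] genotype. Chromatin was taken from whole flies ground together, so each list averages over all tissues of many animals. MSL2 was precipitated with rabbit antibodies. The list names show a preimmune control from males behind the peaks of each line. The series has 19 samples, and 1 listed sample for each of these groups.

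MSL2 is a subunit of the dosage compensation complex of the fly, with MSL1, MSL3, the acetyltransferase MOF, the helicase MLE and the noncoding RNAs roX1 and roX2. The complex assembles in males, where MSL2 is made, and raises transcription from the single X chromosome. It is known to bind first at a set of high-affinity sites rich in GA repeats, which MSL2 contacts through its CXC domain, and to reach active genes around them from there.

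Sites were chosen by the strength of the peak in wt males, which is the −log10 p that the authors deposited for the peak. That value is the lower of 2 replicate calls in every row of both lists. It grows with read depth, which is unknown here, so it ranks sites within a list, and a higher value in one line is not a measure of more binding. The values in wt males describe the choice and support nothing further. All of the comparisons below are descriptions, without tests, because each group has 1 sample and neighbouring peaks are not independent. Intervals after shares are exact Clopper-Pearson 95% intervals and cover counting error only. Coordinates are those of the dm6 build.

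Strength ran over a wide range within the 200. It was lowest at 138, had a median of 429 and reached 15312, and 46 sites had a value of 1000 or more. By contrast 53 sites lay under 250. Rank 1 was the gene lncRNA:roX1, which encodes an RNA of the complex itself. Its peak, X:3860712-3862761, had 16196 and 19381 in the 2 replicate calls of M1[wt] males and 19824 and 15312 in those of wt males, so the lines overlapped in their values. The other RNA gene of the complex, lncRNA:roX2, was not among the 200. Its peak held X rank 1126 in M1[wt] males with a strength of 20.2, and X rank 809 in wt males with 22.2. The wt interval was 9633 bases wide, where the median over all X peaks was 790. A value for so wide an interval need not describe roX2 itself.

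**Figure D1:**
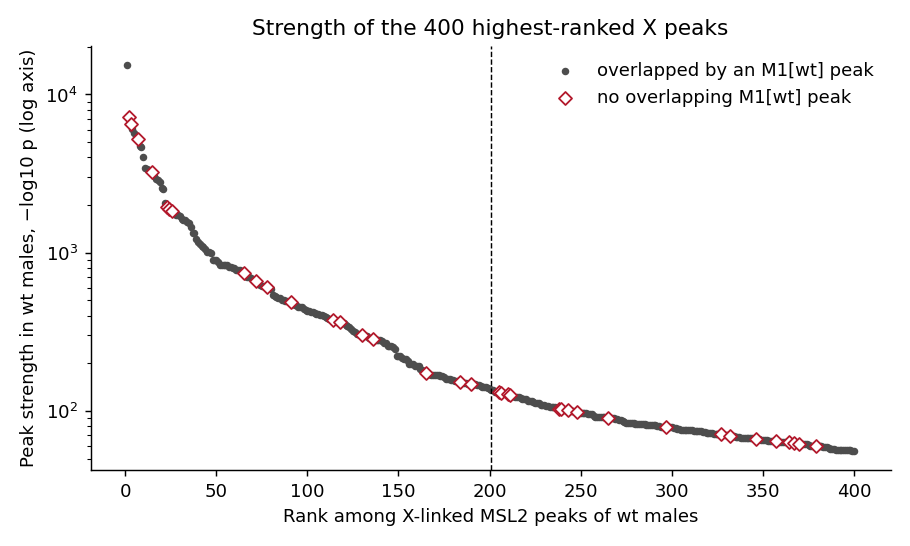
Strength (−log10 p, log axis) of the 400 highest-ranked X peaks of wt males against rank, with 1 point per peak. Filled circles are peaks overlapped by an M1[wt] peak, open diamonds those without, and the dashed line marks rank 200. Diamonds appear at both ends of the range, 18 of them left of the line.

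The choice of 200 falls on a smooth slope rather than at a step. The last 5 sites inside it lay in Pits (142), in the overlapping genes cyr and CG10958 (141), beside CG8034 (141), in NFAT, a transcription factor gene (140), and in the overlapping genes Lcch3, a subunit of a GABA-gated channel, and Ranbp16, a nuclear transport receptor (138). The first 5 peaks outside it lay beside Lim1, a LIM-homeodomain factor gene (136), in the ubiquitin ligase gene Ubr3 (136), in IntS6, an Integrator subunit gene (132), in the G protein subunit gene Gbeta5 (132), and beside lncRNA:CR45541 (132).

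The first question was whether the strong sites were also listed in M1[wt] males. An M1[wt] peak overlapped 182 of the 200 by at least 1 base, or 91.0% (86.1 to 94.6%), where the share over all 1615 X peaks of wt males was 75.4%. Among the 200 X peaks next in rank, up to rank 400 and called the next 200 below, the count was also 182. Among the 1215 X peaks after rank 400 it was 854, or 70.3% (67.6 to 72.8%). The share therefore did not separate the strongest sites from the next 200, while both stood above the weaker remainder of the chromosome.

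Rank in M1[wt] males did separate these classes. Of the 200 sites, 152 (76.0%, interval 69.5 to 81.7%) overlapped one of the 200 strongest X peaks of M1[wt] males, against 27 of the next 200 (13.5%, 9.09 to 19%) and 12.1% of all X peaks of wt males. Another 26 met an M1[wt] peak below these and up to rank 400, and 4 met a weaker one. Seen from the other list, 150 of the 200 strongest M1[wt] X peaks overlapped a strong wt site, and 18 overlapped no X peak of the wt list. The matching shares over all 1595 X peaks of M1[wt] males were not counted, so these counts cannot be called high or low. The counterparts had a median strength of 807 in M1[wt] males, with a lowest value of 39.0. The M1[wt] value exceeded the wt value at 160 of the 182 sites (87.9%), and at 82.5% of all 1218 X peaks with a counterpart, so most X peaks shared this direction.

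Of the 20 strongest sites, 16 had a counterpart, and these kept close to their places. CG15247 held X rank 2 in M1[wt] males (calls of 6107 and 7108) and X rank 4 in wt males (7232 and 6075). Rip11, which encodes an effector of the GTPase Rab11, held 3 in M1[wt] males (5822 and 6181) and 5 in wt males (7179 and 5698). The values of the 2 lines overlapped at both of these genes. At hep, the gene of a kinase that activates JNK, X ranks were 4 in M1[wt] and 6 in wt, with 5636 and 6526 in M1[wt] males and 6670 and 5271 in wt males. The nucleoporin gene Nup153 held X rank 5 in M1[wt] males (5357 and 6248) and 10 in wt males (5076 and 4041). Its M1[wt] calls both lay above its wt calls. The same was seen at Pp2C1, a phosphatase gene, with 5037 and 5921 in M1[wt] males and 4548 and 3411 in wt males.

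The other sites with a counterpart among the 20 strongest lay in a varied set of genes. CG34408 held X rank 7 in M1[wt] males (4858) and 8 in wt males (4759), and CG9132 held 11 (4144) in M1[wt] and 9 (4653) in wt. PhKgamma, whose product is the catalytic part of phosphorylase kinase, held 16 (3561) in M1[wt] and 12 (3394) in wt. The acetyltransferase gene nej, the fly CBP, held 19 (3068) in M1[wt] males and 13 (3335) in wt males. Gbeta13F, a G protein beta subunit gene, held 15 (3589) in M1[wt] and 14 (3264) in wt. Smr, a corepressor gene, held 20 (2861) in M1[wt] and 16 (3070) in wt. CG2186 held 10 (4392) in M1[wt] and 17 (2918) in wt. The last of this set were su(w[a]), a regulator of splicing, at 12 (3824) in M1[wt] and 18 (2882) in wt, dtn at 13 (3691) in M1[wt] and 19 (2783) in wt, and Tomosyn, which restrains neurotransmitter release, at 25 (2238) in M1[wt] and 20 (2554) in wt. None of these 16 sites moved by more than 7 places, and the sites of ranks 2, 3, 7 and 15 had no M1[wt] peak to rank.

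**Figure D2:**
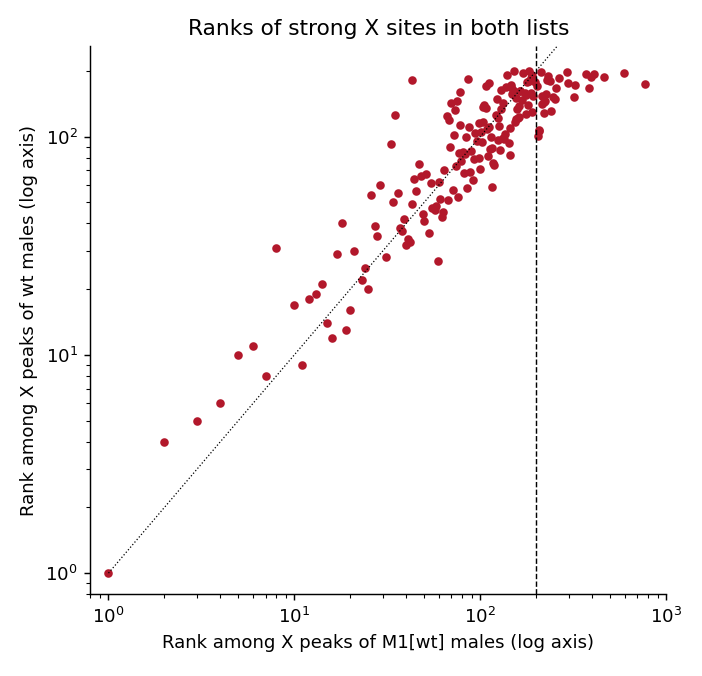
Rank among X peaks of M1[wt] males (x, log axis) against rank among X peaks of wt males (y, log axis) for the 182 strong X sites with a counterpart. The dotted line marks equal rank and the dashed line rank 200 in M1[wt] males. Of the points, 152 lie left of the dashed line.

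Further down, ranks spread more. The M1[wt] rank lay within 20 places of the wt rank at 90 of the 182 sites. Of the moves by more than 100 places, 14 were to a weaker M1[wt] rank and 1 to a stronger one. A site of wt ranks 1 to 100 could not rise that far, while any site could fall that far. The choice of the top of the wt list therefore favours falls, and these counts show no difference between the lines. The genes with the widest moves in each direction are named here after their values were seen. CG2889 held X rank 43 in M1[wt] males and 181 in wt males, and the LSM-domain gene Lsm12a held 86 in M1[wt] and 183 in wt. CanA-14F, a calcineurin catalytic subunit gene, held 35 (1818) in M1[wt] males and 125 (318) in wt males. In the other direction, the peak beside Rala, a small GTPase gene, held 765 (39.0) in M1[wt] males and 174 (165) in wt males, and the peak in hfw held 591 (59.1) in M1[wt] and 195 (144) in wt. The CG2889 value needs care, because 1 M1[wt] interval of 11672 bases covered both the CG2889 site and the neighbouring strong site in nocte, and the CG2889 and nocte peaks of wt males were 2173 and 2272 bases wide. In all, 4 strong sites shared an M1[wt] interval with another strong site, the other pair being the 2 sites in CG3198.

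The 18 strong sites without an overlapping M1[wt] peak included some of the highest ranks. They were 3 of the 10 strongest and 7 of the 26 strongest, against 11 of the other 174. Over all X peaks of wt males, 397 of 1615 had no overlapping M1[wt] peak, a share near that of the 26 strongest. The limit of 26 was chosen after seeing where these sites lay. By blocks of 50 ranks the counts were 7 (14%, 5.82 to 26.7%), 4, 4 and 3 (6.00%, 1.25 to 16.5%), and these intervals overlap. The sites of ranks 2, 3, 7, 15 and 23 lay in sno, a nuclear protein gene of the Notch pathway (7171 in wt males), in the SOCS-family gene Socs16D (6468), in the overlapping genes Atg5, CG1677 and lncRNA:CR44357 (5198), in CG2278 (3227) and in BTBD9 (1956). Their summits in the 2 replicate calls of wt males lay 1, 2, 4, 1 and 2 bases apart.

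The M1[wt] peaks nearest to these sites were weak. The nearest M1[wt] peak to the sno site had a strength of 10.8 and X rank 1568 of 1595. Near Socs16D it had 45.3 (rank 708), near the Atg5 site 36.6 (798), near CG2278 18.3 (1221) and near BTBD9 10.6 (1576). The site in Pgant7, a glycosyltransferase gene (X:18495381-18496018, X rank 24, 1881 in wt males), was 3181 bases from an M1[wt] peak of 46.8. The site in Ubr1, a ubiquitin ligase gene (X:16956515-16957002, X rank 26, 1831), was 4624 bases from one of 10.8. The nearest M1[wt] interval was thus weak at all 7 of these sites, but stronger ones could lie farther off. The second sno site, with its wt summit 7758 bases away, had a counterpart of 772 in M1[wt] males. The Tango5 site, 8522 bases from the BTBD9 summit, had one of 1041. A missing peak is no measurement of absent binding, since the lists hold only intervals that passed in both calls.

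The weaker sites of this kind began at rank 65. They lay in Raf, a kinase gene of the Ras pathway (X:2342507-2344568, 745 in wt males), in ssx, an RNA-binding protein gene related to Sex-lethal (665), in lncRNA:CR44999 (605), in the coatomer gene deltaCOP (486), in CG15771 (377), in mys, the integrin beta subunit gene (362), in pcx (302), and 62 bases from the nucleoporin gene Nup205 (286). The last of them lay in AMPKalpha, an energy-sensing kinase gene (174), and, named to complete the count, in CG4404 (152) and Dlic, a dynein subunit gene (149). For the whole group of 18, the nearest M1[wt] peak was between 228 and 11699 bases away, with a median of 2377, and under 1000 bases away at 3 sites. CG4404 and CG15771 had strong neighbours in M1[wt] males, with values of 1937 at 2201 bases and 588 at 1167 bases. Of these 18 sites, 11 lay within 500 bases of a gene boundary, against 63 of the 182 with a counterpart. Over all X peaks of wt males, the share was 37.0% (598 of 1615). The matching count for X peaks outside the strong sites that lack a counterpart was not made. With only 18 sites, whether a missing counterpart goes with a nearby boundary was not tested. Median widths were 1389 bases for the 18 and 1514 for the 182.

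Summits were placed closely by both lines. The summits of M1[wt] and wt males lay a median of 5 bases apart over the 182 sites with a counterpart (interval of the median 4 to 6), against 14 bases for the next 200 (12 to 17) and 34 for X peaks after rank 400 (29 to 38). They lay 10 bases or less apart at 129 of the 182 (70.9%, 63.7 to 77.4%), where the share over all X peaks with a counterpart was 31.8%. At crm and CG11122, among others, they fell on the same base. Over 250 bases separated them at 5 sites, among them the CG2889 and CG3198 sites that shared an M1[wt] interval. Between the replicate calls of wt males the median was also 5 bases for the strong sites, and 12 for the next 200, and no strong site exceeded 166 bases. Strength and summit precision come from the same reads in wt males, and the part of depth in this was not tested.

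Strong sites were wide. The median width was 1503 bases (interval 1251 to 1745), with quartiles of 840 and 2413, against 933.5 bases for the next 200 and 731 for all other X peaks. Width was measured on the reads that gave the strength. A width over 1000 bases was found at 139 sites and one over 5000 at 7. The widest sites lay in CG11122 (8124 bases in M1[wt] males and 8159 in wt males), in crm (7355 in M1[wt] and 7323 in wt), and 169 bases from mei-38 (6202 in M1[wt] and 6266 in wt). The narrowest were those in CG10555 (346 bases in M1[wt] and 304 in wt), the weaker one in CG3198 (2194 in M1[wt], where the interval is shared, and 312 in wt) and one where CG5445 and Fim overlap (901 in M1[wt] and 350 in wt). At the 3 widest sites the 2 lines thus gave nearly equal extents. Over all 182 the M1[wt] interval was wider at 148 (81.3%), a share close to the 82.2% of all X peaks with a counterpart.

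**Figure D3:**
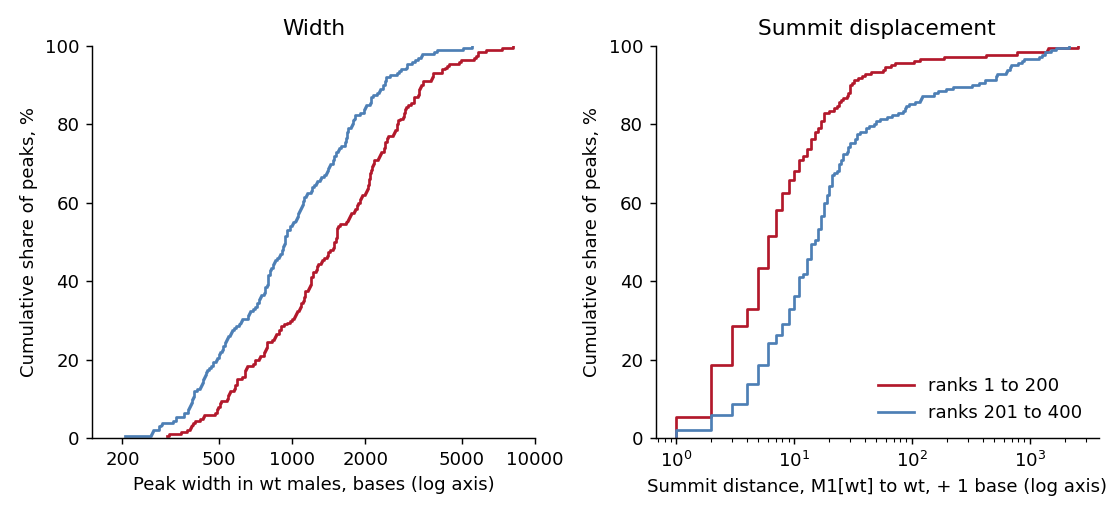
Cumulative share of peaks by width in wt males (left) and by the distance between M1[wt] and wt summits, plus 1 base (right), for the 200 strong X sites and the next 200 X peaks, on log axes. Medians are 1503 and 933.5 bases on the left; before the added base, they are 5 and 14 bases on the right.

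The sites were spread along the X at uneven distances. The 200 summits lay between 472876 and 23008917, on a chromosome whose annotated genes run from 1449 to 23108331. Neighbouring summits were a median of 67039 bases apart (interval 49527 to 88770) and a mean of 113246. Even spacing over the gene span would give 115534, which compares with the mean. A median below the mean shows that the distances were uneven, and whether the sites cluster was not tested. The next 200, equal in number, had a median of 53044 (38746 to 71997). Of the 199 distances, 30 were under 10 kb and 32 over 200 kb, against 44 and 35 for the next 200. The nearest other strong site was within 10 kb for 58 sites and beyond 100 kb for 36.

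Density varied by position. In windows of 1 Mb, the stretch from 9 to 10 Mb held 18 strong sites among 95 X peaks of wt males and that from 6 to 7 Mb held 15 among 107. The stretch from 7 to 8 Mb held 2 among 55 and that from 14 to 15 Mb held 2 among 25. Toward the end of the chromosome, 22 to 23 Mb held 2 among 18 and 23 to 24 Mb held 1 among 12. The whole X held 200 among 1615. These windows were picked for high or low counts, and a low count can go with few X peaks of any strength. The longest interval without a strong site ran over 1129348 bases between the sites in tty and Usp2. The most isolated sites lay in FucTC, a fucosyltransferase gene (468779 bases from any other), at Atg5 (404069) and in Hira, a histone chaperone gene (324360). FucTC and Hira had counterparts in M1[wt] males, with 775 and 1170 in M1[wt] males against 387 and 878 in wt males.

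The closest pairs lay in 1 gene or at neighbouring genes. The 2 sites in CG3198 were 773 bases apart. Those in ssx and AMPKalpha were 1075 apart, and neither had an M1[wt] counterpart, with the nearest M1[wt] peak of both the same one, at a strength of 31.0. The sites in Ssu72, a phosphatase gene acting on RNA polymerase, and beside Zw, which encodes glucose-6-phosphate dehydrogenase, were 1192 apart.

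Other wt X peaks, strong sites included, lay around the strong sites about as often as around the rest. Another such peak lay within 5 kb of 167 of the 200 (83.5%, 77.6 to 88.4%), against 165 of the next 200 and 81.1% of all X peaks. The mean number of other peaks within 10 kb was 3.68 around strong sites and 3.75 around the next 200. Among the 20 strongest, the roX1, CG15247 and Rip11 sites had no other wt peak within 10 kb, while the Tomosyn site had 9. In the first 1 kb from the summit there were 0.095 other peaks per strong site and 0.225 per site of the next 200. The strong peaks were also the wider ones, and the part of width in this was not tested.

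**Figure D4:**
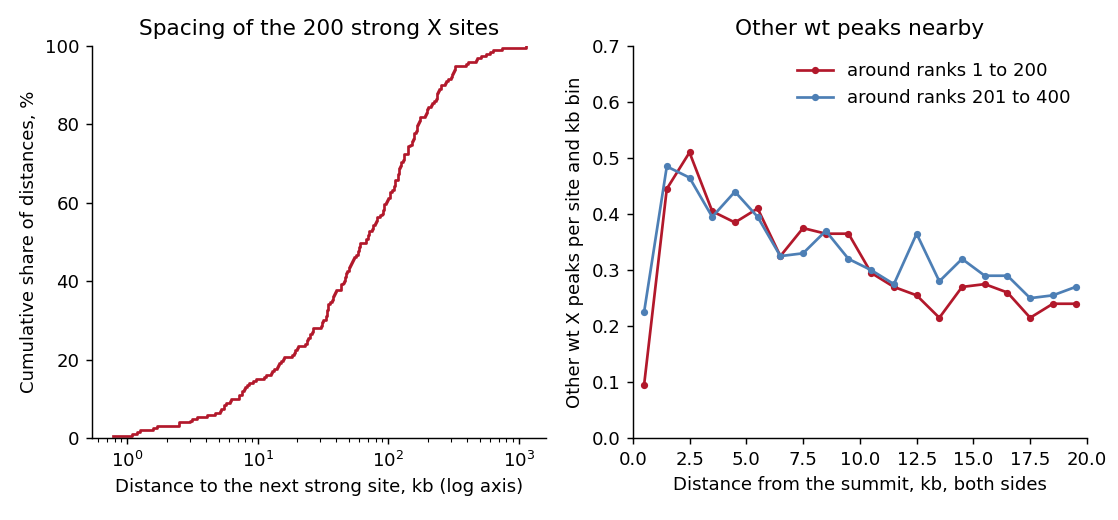
Left, cumulative share of the 199 distances between neighbouring strong X sites (kb, log axis). Right, other wt X peaks per site in bins of 1 kb from the summit, for the strong sites and the next 200 X peaks, with points at bin centres. The median on the left is 67.0 kb; on the right the 2 lines run close together from 1 kb to 10 kb.

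Most strong sites lay inside genes. The summit was inside an annotated protein-coding or lncRNA gene at 180 of the 200 (90.0%, 85.0 to 93.8%), where the share over all X peaks was 88.9%. For the next 200 it was 83% (77.1 to 87.9%). A gene boundary, at either end, was within 500 bases of 74 summits (37.0%, 30.3 to 44.1%), the same share as the 37.0% of all X peaks, against 96 of the next 200 (48.0%, 40.9 to 55.2%). The gene table used carries neither strand nor exons, so starts are pooled with ends, and exonic with intronic summits. The intervals of the strong sites and the next 200 overlap in both measures.

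Gene position varied with rank inside the 200. Among ranks 1 to 50 the summit was inside a gene at 48 sites and within 500 bases of a gene boundary at 13. Among the last 50 ranks these counts were 41 and 26. The median width was 1782 bases in the first block and 925 in the last, and the median distance between M1[wt] and wt summits was 2 and 12 bases. These blocks were set by strength in wt males, so the trend is a description.

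**Figure D5:**
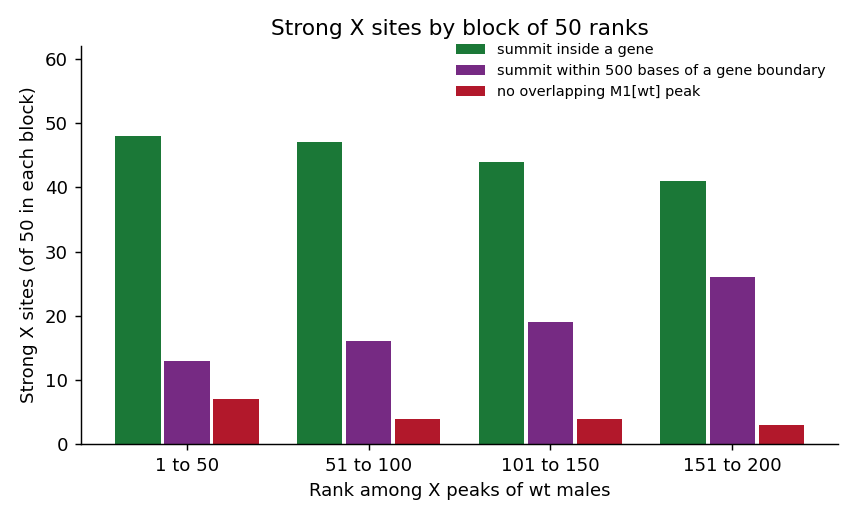
Number of strong X sites, of 50 in each block of ranks, with the summit inside a gene, with the summit within 500 bases of a gene boundary, and with no overlapping M1[wt] peak. Inside-gene counts are 48, 47, 44 and 41, boundary counts 13, 16, 19 and 26, and counts without a counterpart 7, 4, 4 and 3.

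Of the 20 sites outside genes, 19 lay within 1000 bases of one. The strongest was 95 bases from Cyp4ae1, a cytochrome P450 gene (X:2177731-2180898, 1384 in M1[wt] males and 1824 in wt males). Others lay 35 bases from the ribosomal protein gene RpS28b (228 in M1[wt] and 247 in wt), 46 bases from Zw (238 in M1[wt] and 222 in wt) and 356 bases from the clock gene per (273 in M1[wt] and 256 in wt). These 4 are named after their values were seen, as is the 1 site farther from any gene. That site, X:1397662-1400293, was 2498 bases from the nearest gene and had 2171 in M1[wt] males and 837 in wt males.

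A total of 177 genes held a strong summit, 171 of them protein-coding and 6 lncRNA genes. The protein-coding ones had a median length of 5922 bases, against 3693 for the 686 other X genes with a wt peak inside and 2520 for all 2197 X-linked protein-coding genes. Counted per summit instead, the gene that held it had a median length of 6576 bases for strong sites, 7371 for the next 200 and 7272 for all other X peaks. The part of gene length in where summits fall was not tested. A further weaker peak lay inside 108 of the 177, and 13 held more than 1 strong site. The matching counts for other X genes with a wt peak were not made. As the holding genes were also longer, these counts cannot be called high or low.

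The gene nej held the most, with 4 of the 200 among its 9 wt peaks. Their strengths were 3068, 1465, 1281 and 780 in M1[wt] males and 3335, 775, 775 and 160 in wt males. Smr followed with 3 of 9, at 2861, 1132 and 385 in M1[wt] males and 3070, 361 and 193 in wt males. The order of the sites within each of these genes was the same in both lines. The nej sites of X ranks 61 and 62 were nearly tied in wt males, however, at 774.9 and 774.7.

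Other genes held a pair of strong sites. In hep the second site had 1514 in M1[wt] males and 617 in wt males, and in Rip11 it had 103 in M1[wt] and 150 in wt. The second site of sno did have a counterpart, with 772 in M1[wt] and 429 in wt, unlike its rank 2 site. In PhKgamma the second site had 249 in M1[wt] and 156 in wt. The bromodomain protein gene fs(1)h had 1269 and 542 at its sites in M1[wt] males, against 841 and 148 in wt males. In norpA, the phospholipase C gene of phototransduction, the values were 791 and 358 in M1[wt] males and 286 and 158 in wt males. Vap33, which encodes a tether of the endoplasmic reticulum, had 867 and 516 in M1[wt] males and 604 and 169 in wt males. CG3198 had 379 and 192 in wt males at its sites, which shared 1 M1[wt] interval.

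Lists of X-linked genes were looked up among the strong sites. Over all X-linked protein-coding genes, 259 of 2197 (11.8%) had a strong site in them or within 1000 bases. Of 42 genes of signalling and kinases, 18 had one. The list was drawn up with 7 of its names known from earlier results of these data, 6 of which had a strong site, and without them the count was 12 of 35. It included Raf and Dsor1, consecutive kinases of the Ras pathway, arm, the beta-catenin gene (3661 in M1[wt] males and 2534 in wt males), and Tak1, a kinase gene of immune signalling (1117 in M1[wt] and 269 in wt), all named after their values were seen. Dsor1 had 106 in M1[wt] males and 171 in wt males, while Raf had no M1[wt] counterpart.

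Of 42 genes of chromatin and transcription, 9 had a strong site, and 8 of 39 without the names known before. After Nup153, nej and Smr, the strongest were at Top1, the topoisomerase gene (2006 in M1[wt] males and 1532 in wt males), and Hira. The count takes in hfw, for which no role in chromatin is known here. Of 24 genes of neuronal channels and synapses, 3 had one, a share near that of all genes. They were comt, the NSF gene (494 in M1[wt] and 361 in wt), the potassium channel gene Sh (800 in M1[wt] and 281 in wt), and sdk (208 in M1[wt] and 150 in wt). Of these, only Sh held the summit. The comt peak has its summit in HDAC4, and the sdk summit lay 118 bases outside sdk. Of 15 ribosomal protein genes, 3 had one, at sta (1019 in M1[wt] and 839 in wt), RpL7A (804 in M1[wt] and 365 in wt) and RpS28b, and in each case the summit lay beside the gene rather than in it. Without the names known before, the count was 2 of 13. The sta peak is the wide one near mei-38, and the RpL7A peak has its summit in dx, a gene of the Notch pathway. Of the 3 X-linked genes of the complex, roX1 alone had one.

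Replicate calls differed in a regular way. The first call exceeded the second at 198 of the 200 strong sites in wt males (99%, 96.4 to 99.9%), with a median ratio of 1.31 and a highest of 1.67. The next 200 were much alike, at 188 (94.0%, 89.8 to 96.9%) and a median ratio of 1.29. The share over all X peaks was 79.4%. In M1[wt] males the second call exceeded the first at 173 of the 182 counterparts of strong sites and at 157 of the 182 of the next 200 (86.3%). Over all X peaks with a counterpart the share was 78.5%. The labels do not say what the calls are.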

How the data were processed

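Peak lists of MSL2 ChIP-seq in M1[wt] and wt males were used, with 1 listed sample each, grouped by sample title. Tools listed in the submitters' processing notes are MACS2, Bowtie2, cutadapt, deepTools and Picard, with the builds dm6 and dm3. Their settings are not known here. Sequence names and gene positions match dm6. The deposited lists have 20 columns without a header, in the layout of the irreproducible discovery rate (IDR) method for 2 replicate calls. The deposited −log10 p of each peak and call was made by the authors' peak caller, and the −log10 of the global IDR is at least 1.30. Columns for fold enrichment and q hold a placeholder.

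X peaks of wt males were sorted by −log10 p, ties by start, and the first 200 kept. The strongest M1[wt] peak overlapping a site by 1 base or more was its counterpart, and several sites could share it. Summits were assigned to the protein-coding or lncRNA genes that hold them, otherwise to the nearest gene within 1000 bases, from an NCBI RefSeq table of the Release 6 assembly. Names in the gene lists were matched to symbols or synonyms in that table. The sites, lists and naming rule were chosen with earlier results of these data known. The rule names genes at ranks 1 to 20 and at the 5 ranks on each side of the limit of 200, at up to 15 of the sites without a counterpart, at up to 10 genes with more than 1 site, at the 3 widest, narrowest and most isolated sites and the 3 closest pairs, and the 5 strongest of each list. Intervals of medians are binomial, at 95%. Python 3.11.15, pandas 2.3.3 and scipy 1.17.1 were used. Simulated peaks were used to test the overlap and the gene assignment. The planned search for GA repeats was not run, because sequence was not used here. No depth per sample is known.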

Additional observations from a re-analysis of the deposited data

How the results depend on the processing

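The 5 results on overlap, gene position, spacing and width were recomputed under 23 alternatives, and 14 values stayed within the 95% interval of the value reported. The share with an M1[wt] counterpart (91.0%) was 85.0% when the overlap had to cover at least 50% of both peaks, and 87.0 to 91.0% under the other settings of overlap, threshold, rank and number. The share of summits inside a gene was 95% among the 100 strongest. The share near a gene boundary was 17.5% within 200 bases, 60.5% within 1000 bases and, at 500 bases, 29.0% among the 100 strongest. The median distance between neighbours was 158314 bases for the 100 strongest and 23972 for the 400 strongest, which follows from the number of sites. The median width was 1913 bases for the 100 strongest and 1158 for the 400 strongest. Ranking by the first replicate call kept 188 of the 200 sites. Ranking by the second is nearly the ranking used, since that call was the lower at 198 of the 200 sites. Ranking by fold enrichment and the GA-repeat search were not run, since neither quantity was at hand. Depth is unknown, so strength is not comparable between the lines. No paired analysis was possible because each group has 1 sample and no replicate number.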
